A study of Mus musculus with 6 samples.

Results

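The tumor necrosis factor (TNF) superfamily was examined in subcutaneous white adipose tissue (scWAT) of mice in which *Yap* and *Taz* were targeted in adipocytes. Its genes were taken by symbol, as those named *Tnfsf* or *Tnfrsf* with a number and at most 1 letter, together with *Tnf*, *Lta*, *Ltb*, *Ltbr*, *Fas*, *Fasl*, *Cd40*, *Cd40lg*, *Eda* and *Edar*. This rule found 41 of the 55401 genes in the deposited tables, 17 ligands and 24 receptors. Total RNA of scWAT was sequenced from 3 male mice labelled WT and 3 male mice labelled YT-AKO, with the genotype Yapfl/fl/Tazfl/fl;AdipoqCre, all 8 weeks old. According to the study's methods, the controls carried the same floxed *Yap* and *Taz* alleles without Cre, so the groups shared these alleles and differed in the Cre transgene. The *Adipoq* promoter drives Cre in mature adipocytes, and the other cells of the fat pad were sequenced with them. Each library is taken as 1 mouse, as the study describes. The p-values set the difference between the groups against the variation between these 6 libraries within their groups.

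Ligands of this family are trimeric proteins, most of them anchored in the membrane of immune cells and some of them shed by proteases. Their receptors either recruit TRAF adaptors, which lead to NF-κB and MAP kinase signalling, or carry a death domain that can start apoptosis. In fat, TNF is best known as a macrophage cytokine that opposes insulin action in adipocytes, while lymphotoxins, BAFF and CD40 serve the lymphocytes of the lymph nodes embedded in the tissue.

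The 6 libraries held 17740987 to 21838493 counted fragments. YT-AKO 2 had the most fragments but the fewest genes with a count, 20501 against 22810 to 24576 in the other libraries. Both targeted genes were examined first. *Yap1* fell in the libraries labelled YT-AKO (log2 fold change -0.98, SE 0.167, adjusted p = 0.0179, the quasi-likelihood test of edgeR, adjusted by Benjamini-Hochberg over 16807 genes, as for all adjusted p-values below unless another tool is named). *Wwtr1*, which encodes TAZ, was higher there in RNA counted over all its exons (0.89, SE 0.182, adjusted p = 0.022). By immunoblot, the study found less YAP and TAZ protein in scWAT of YT-AKO mice. The reason for the higher *Wwtr1* counts was not tested, so every direction given here is that of the libraries labelled YT-AKO. *Adipoq* stood at 1471 to 1996 CPM (counts-per-million, scaled with TMM factors) in WT and at 1936 to 2399 CPM in YT-AKO. This shows adipocyte RNA in every library but not the depot. Markers of other cells differed as well. The summed level of 8 B cell markers was 1178 to 1429 CPM in WT and 673 to 980 CPM in YT-AKO, with 5 of the 8 called lower, and that of 5 thermogenic adipocyte genes was 124 to 183 and 1280 to 2078 CPM, with 5 of 5 called higher. YT-AKO 1 stood apart in 5 skeletal muscle markers (2936 CPM, against 110 to 437 CPM in the other libraries) and YT-AKO 2 in the lymph node chemokine *Ccl19* (31.0 CPM, against 0.255 to 2.37 CPM). *Ccl21a* was also highest in YT-AKO 2 (8.48 CPM), but *Madcam1* (2.89 CPM) and *Chst4* (1.77 CPM) were lowest there. All 6 lymph node stroma markers summed to 202 CPM in YT-AKO 2, within the WT range of 180 to 222 CPM. Log2 fold changes also ran with gene length across the tested genes (Spearman's rho -0.376, and -0.283 without YT-AKO 2), though genes are not independent replicates. Values with a correction for length are therefore given where they change a call of a gene of the family or downstream of it.

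Per unit of transcript length, receptors held most of the upper ranks in WT scWAT. Of the 41 genes, 36 had a mean above 1 TPM (transcripts-per-million, a level that can be compared between genes) and 23 above 10 TPM, 8 ligands and 15 receptors. The highest level was that of *Ltb*, the membrane subunit of lymphotoxin, at 325, 272 and 215 TPM in the 3 WT libraries. *Tnfrsf1a*, the widely expressed TNF receptor with a death domain, followed at 208, 190 and 215 TPM and overlapped *Ltb*. *Tnfrsf13c*, the BAFF receptor of B cells, had rank 3 at 104, 120 and 109 TPM, below both without overlap, and *Ltbr*, the lymphotoxin β receptor of stromal and myeloid cells, rank 4 at 93.5, 89.6 and 103 TPM, below *Tnfrsf13c*. The next 3, *Tnfrsf1b* (59.1 to 83.9 TPM), *Tnfrsf14* (38 to 94.9 TPM) and *Tnfrsf13b* (52.2 to 78.4 TPM), could not be ordered by their spread. *Tnf* itself stood at 15.5, 15 and 16.2 TPM, rank 17. *Tnfrsf12a*, the receptor of TWEAK, had rank 24 at 9.92, 7 and 9.71 TPM. At the lower end, *Tnfsf18*, *Tnfsf4* and *Edar* had 0 to 8 counts in every library and were not tested.

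**Figure D1:**
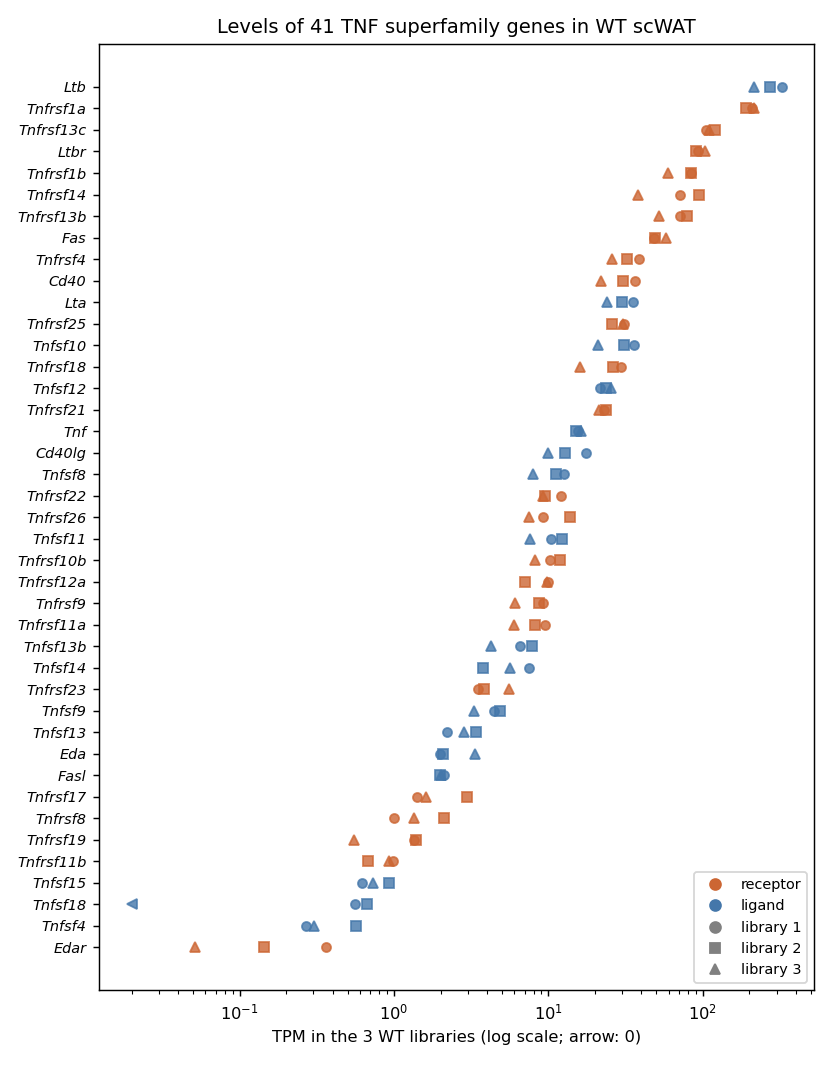
Levels in TPM (x axis, log scale) of the 41 ligands (blue) and receptors (orange) in the 3 WT libraries, with the symbol giving the library. *Ltb* and *Tnfrsf1a* lie at 190 to 325 TPM and most neighbouring genes overlap.

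Between the groups, 3 of the 38 tested genes rose in YT-AKO and 5 fell. The risers were *Tnfrsf12a* and *Tnfsf12*, the receptor and ligand of the TWEAK pair, and *Ltbr*. The 5 that fell were the B cell receptors *Tnfrsf13b* and *Tnfrsf13c* and the ligands *Tnfsf10*, *Cd40lg* and *Tnfsf8*. By the same rule, 12.6% of all 16807 tested genes were called higher and 9.01% lower, against 3 and 5 of 38 here, so the counts do not set the family apart. The branches described below hold at most 10 tested genes each, too few for their counts to set a branch apart. *Tnf* and the 2 TNF receptors were not among the called genes. The groups did not overlap in CPM for 5 genes that were higher and 11 that were lower, beside 25.7% and 25.8% of all tested genes. The median log2 fold change was -0.24 over the 38 genes and -0.02 over all tested genes.

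Other tools and libraries moved these counts. DESeq2, the tool of the study, called 4 higher and 7 lower (16.2% and 12.6% of the 17774 genes with an adjusted p), adding *Tnfrsf25*, *Tnfrsf10b* and *Tnfrsf22*. With a correction for gene length, 2 were higher and 5 lower (10.1% and 4.54% of all tested genes) and *Tnfsf12* was the call that was lost. Leaving out YT-AKO 2 gave 4 higher and 7 lower, beside 2925 and 2426 of 17350 genes tested. Leaving out YT-AKO 1 gave 3 and 5, beside 2226 and 1444 of 17514. Leaving out WT 3 gave 2 and 1, beside 704 and 528 of 17458. Leaving out YT-AKO 3 gave 4 and 3, beside 1784 and 895 of 17467. The calls rested on WT 1 and WT 2. Without either of them no member of the family was called by edgeR, and of all genes 0 and 2 were. In each of these fits 9 members had an unadjusted p under 0.05, beside 4665 of 17183 and 4507 of 17140 genes tested. With all libraries there were 15, beside 6853 of 16807 genes. The 8 called genes kept their direction in all of 144 alternative values. Their groups did not overlap in CPM and every fit reused these libraries, so this is no independent test of direction.

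**Figure D2:**
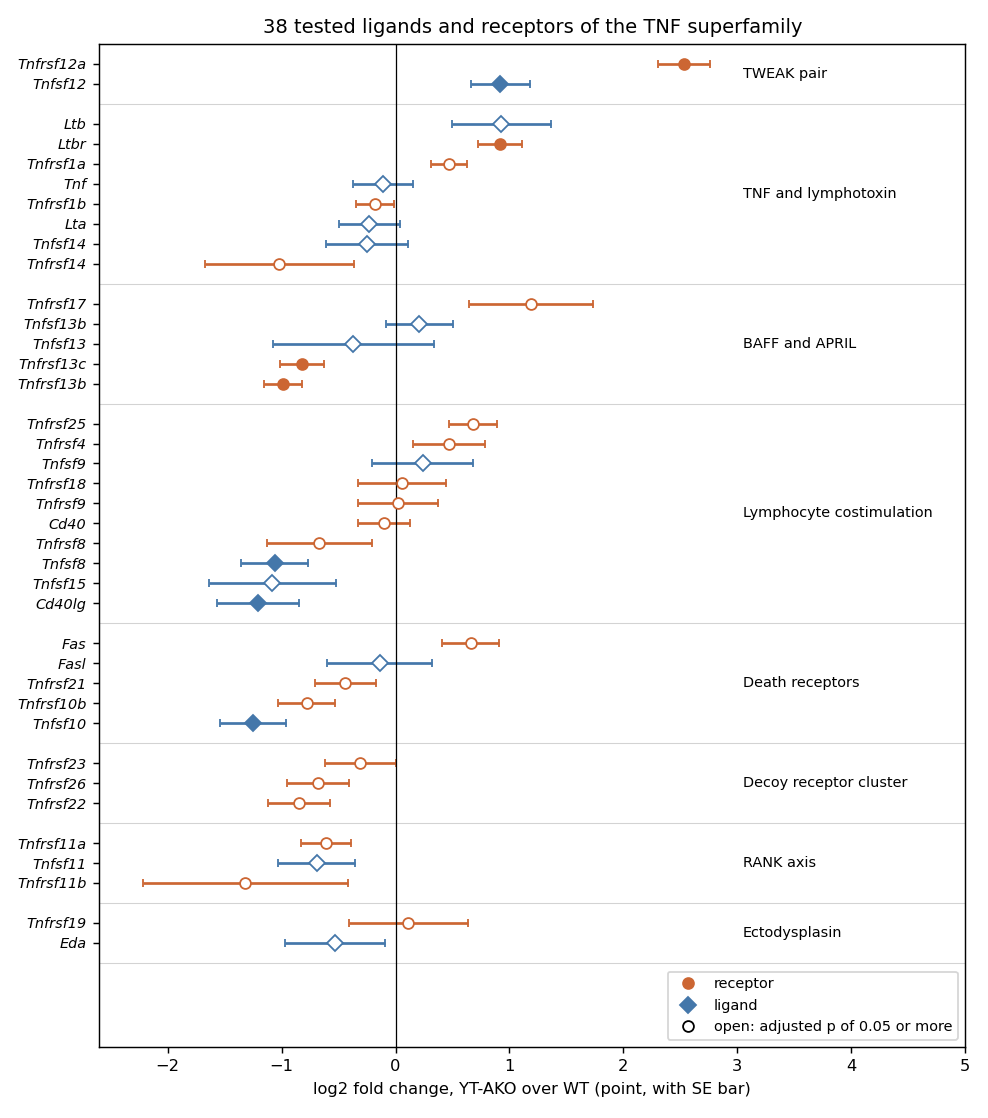
Log2 fold change of YT-AKO over WT (x axis) for the 38 tested genes, grouped by role. Bars are 1 SE derived from the edgeR test, and symbols are filled for an adjusted p under 0.05. *Tnfrsf12a* stands alone at 2.53, and the other 37 lie between -1.32 and 1.19.

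The TWEAK pair held the largest difference of the family. TWEAK, encoded by *Tnfsf12*, binds the small receptor Fn14, encoded by *Tnfrsf12a*, which is known to be induced in injured and remodelling tissue. *Tnfrsf12a* was counted 117, 78 and 101 times in WT and 468, 391 and 485 times in YT-AKO. These counts correspond to 4.98, 3.42 and 5.19 CPM and to 27.2, 23.0 and 28.6 CPM, with means of 4.53 ± 0.966 and 26.3 ± 2.90 CPM (SD, n = 3 each). All 3 YT-AKO libraries stood well above all 3 WT libraries, and the spread within each group was small beside the gap. The fold was 5.80 (log2 fold change 2.53, SE 0.229, adjusted p = 0.00728). It ranked 11 by p among the 16807 tested genes and 273 by the size of the log2 fold change. Under a stricter rule, an adjusted p under 0.01 with a log2 fold change beyond 1, which 21 genes met (0.125% of those tested), *Tnfrsf12a* was the 1 gene of this family. With the length correction its log2 fold change was 2.23 (adjusted p = 0.0104), and leaving out each library in turn gave 2.36 to 2.65. The call was lost without WT 1 (adjusted p = 0.079) and without WT 2 (0.0708).

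Skeletal muscle can also express *Tnfrsf12a*. The summed level of the 5 muscle markers was 401, 110 and 159 CPM in WT and 2936, 437 and 207 CPM in YT-AKO, so that YT-AKO 3 lay among the controls, and 1 of the 5, *Acta1*, was called higher (131, 41 and 81.7 CPM in WT, and 1107, 311 and 197 CPM in YT-AKO). With YT-AKO 1 left out, *Tnfrsf12a* had a log2 fold change of 2.52 (adjusted p = 0.0254). The part of muscle in the rise was not tested. In such whole-tissue RNA, more cells of a type and more RNA per cell cannot be told apart, for this gene and for those below.

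Because YAP and TAZ can act through TEAD factors, which often share sites with AP-1, promoter windows of the family were searched on both strands. The motifs were GGAATG (TEAD), TGANTCA (AP-1) and the NF-κB consensus. The windows ran from 250 bases before to 50 after the start in RefSeq's GRCm38.p6 annotation, so sites further away were not searched. Of all 32851 windows, 14.7% held the TEAD motif, 7.81% the AP-1 motif and 8.46% the NF-κB consensus. Among 36 windows of 32 family members (9 had none), 7 (19.4%), 7 (19.4%) and 4 (11.1%) did. Windows of *Tnfsf13b* overlap and hold the same AP-1 site, which was counted for each of them. None of the 3 motifs was found in the windows of the 6 called genes that had one. The *Tnfrsf12a* sequence is shown because the gene changed most. These are the 231 bases of its window that lie upstream of the annotated gene (GRCm38, chr17:23677469-23677699, minus strand, 5′ to 3′), in lower case throughout since no motif was found to capitalise.
Tnfrsf12a: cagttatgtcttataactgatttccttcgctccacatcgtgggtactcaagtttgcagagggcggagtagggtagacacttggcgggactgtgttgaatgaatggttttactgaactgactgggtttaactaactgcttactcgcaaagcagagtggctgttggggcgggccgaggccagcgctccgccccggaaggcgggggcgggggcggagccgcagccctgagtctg

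The ligand gene *Tnfsf12* stood at 8.43, 8.95 and 10.6 CPM in WT and at 12.2, 22.9 and 18.0 CPM in YT-AKO. The groups did not overlap, and YT-AKO 1 was closest to the controls. The fold was 1.90 (log2 fold change 0.92, SE 0.260, adjusted p = 0.0427). This call was the least stable of the 3 rises. It was lost with the length correction (0.52, adjusted p = 0.133), with library totals in place of TMM factors (0.57, adjusted p = 0.0975), and also without WT 3 (adjusted p = 0.0808), YT-AKO 3 (0.0797), WT 1 (0.16) or WT 2 (0.16). In TPM the difference was smaller, with *Tnfsf12* at 23.3 ± 1.92 in WT and 27.1 ± 4.97 in YT-AKO (SD, n = 3 each). Of its exon bases, 48.3% are shared with the readthrough gene *Tnfsfm13*, and fragments on shared bases were left out of both counts. *Tnfsfm13* had 14 to 35 counts per library. *Tnfsf13*, which encodes APRIL and lies 0.466 kb from *Tnfsf12* on chromosome 11, shares 60.0% of its exon bases and had 3 to 32 counts, so its level is uncertain.

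Among the lymphotoxin and TNF genes, 1 of 8 was called higher and 0 lower, beside 12.6% and 9.01% of all tested genes. *Ltbr*, whose signal maintains lymph node stroma and activates the alternative NF-κB pathway, stood at 57.2, 53.4 and 66.8 CPM in WT and 89.3, 135 and 112 CPM in YT-AKO. All YT-AKO libraries were above all WT libraries. The fold was 1.89 (log2 fold change 0.92, SE 0.194, adjusted p = 0.0234). It remained called with the length correction (0.68, adjusted p = 0.0424) and with library totals alone (0.58, adjusted p = 0.0448). The call was lost without WT 1 (adjusted p = 0.119) or WT 2 (0.125). In TPM the difference was smaller, with *Ltbr* at 95.2 ± 6.64 in WT and 112 ± 15.2 in YT-AKO (SD, n = 3 each). *Tnfrsf1a* lies 35.5 kb from *Ltbr* on chromosome 6 (chr6:125349362-125362484 beside chr6:125306571-125313885, GRCm38). Its levels were 140, 124 and 154 CPM in WT and 196, 180 and 201 CPM in YT-AKO. The groups did not overlap, but the difference missed the threshold (0.47, SE 0.156, adjusted p = 0.0653). It passed without YT-AKO 2 (0.51, adjusted p = 0.0207), and with library totals alone the log2 fold change was 0.15. In TPM, *Tnfrsf1a* was at 204 ± 13.0 in WT and 182 ± 51.5 in YT-AKO (SD, n = 3 each), so even the order of the means depended on the scale.

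*Tnf*, the founding cytokine of the family, was counted 155, 142 and 143 times in WT and 129, 114 and 75 times in YT-AKO. As CPM, the values were 6.60, 6.23 and 7.35 against 7.49, 6.71 and 4.43, and the groups overlapped. The log2 fold change was -0.11 (SE 0.263, adjusted p = 0.764). Beside it, 8 macrophage markers summed to 1082 to 1275 CPM in WT and 1443 to 1747 CPM in YT-AKO, with 0 of the 8 called. Most of this sum was *Lyz2* (718, 819 and 699 CPM in WT, and 948, 1340 and 934 CPM in YT-AKO), and *Cd163* had a log2 fold change of -0.17. *Tnfrsf1b*, the TNF receptor of leukocytes and endothelium, stood at 83.2, 80.9 and 62.5 CPM in WT and 73.8, 61.8 and 64.1 CPM in YT-AKO, also with overlap (-0.18, SE 0.170, adjusted p = 0.443).

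*Ltb*, first by mean TPM in WT, stood at 128, 104 and 90.1 CPM in WT and at 125, 370 and 121 CPM in YT-AKO. YT-AKO 2 stood apart, and the other YT-AKO libraries lay among the controls. The log2 fold change was 0.93 (SE 0.434, adjusted p = 0.145) with all libraries, 0.48 with the length correction and 0.19 without YT-AKO 2. This library also had the fewest genes with a count. In the same library the 8 T cell markers summed to 758 CPM, against 335 to 592 CPM in the other 5. They did not move alike there, since *Cd3d* was at 165 CPM, against 31.5 to 35.7 CPM in the others, while *Cd3e* (58.8 CPM) and *Cd5* (42.6 CPM) lay within the WT range and *Cd4* (38.3 CPM) was the lowest of the 6. The parts of T cells and of the quality of this library in the *Ltb* value were not tested. The *Ltb* window was the 1 among *Tnf*, *Lta* and *Ltb* with a motif, an NF-κB consensus at -87 from the RefSeq start. It is shown for this site, in capitals, within the 182 bases upstream of the annotated gene (GRCm38, chr17:35194257-35194438, plus strand, 5′ to 3′).
Ltb: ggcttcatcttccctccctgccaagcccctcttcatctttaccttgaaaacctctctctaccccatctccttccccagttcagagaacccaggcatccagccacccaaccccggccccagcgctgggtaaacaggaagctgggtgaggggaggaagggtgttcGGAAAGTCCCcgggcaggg

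*Ltb*, *Tnf* and *Lta* lie within the same stretch of chromosome 17, 3.06 and 1.16 kb apart, and showed no common shift. *Lta*, the soluble lymphotoxin, had a log2 fold change of -0.23 (adjusted p = 0.542). *Tnfsf14*, encoding LIGHT, another ligand of the lymphotoxin β receptor, had -0.25 (adjusted p = 0.628). *Tnfrsf14*, the LIGHT receptor also known as HVEM, was at 26.6, 34.5 and 15.1 CPM in WT and 7.31, 3.83 and 26.5 CPM in YT-AKO. Here YT-AKO 3 lay among the controls while the other YT-AKO libraries were below them. The log2 fold change was -1.02 (SE 0.653, adjusted p = 0.27), and -2.18 without YT-AKO 3 (adjusted p = 0.0381), the 1 fit of those leaving out a library in which it was called.

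**Figure D3:**
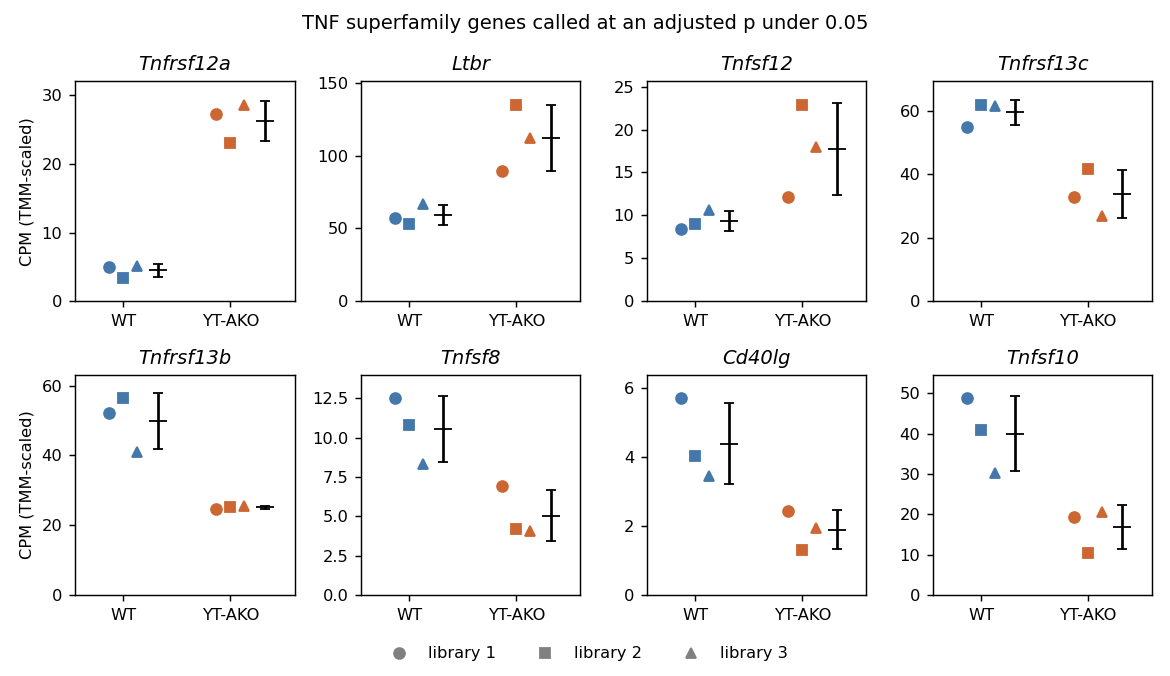
CPM (y axis, from 0) of the 8 called genes in the 3 WT (blue) and 3 YT-AKO (orange) libraries, with the mean and SD in black and the symbol giving the library. In all 8 panels the groups do not overlap, with *Tnfrsf12a* at 3.42 to 5.19 CPM in WT and 23.0 to 28.6 CPM in YT-AKO.

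The BAFF and APRIL system keeps B cells and plasma cells alive. BAFF and APRIL are secreted by myeloid and stromal cells, and their receptors BAFF-R, TACI and BCMA are carried by the B lineage. Of these 5 genes, 2 receptors were called lower, beside 9.01% of all tested genes, and the ligands did not pass the test. *Tnfrsf13b*, encoding TACI, stood at 52.2, 56.3 and 41 CPM in WT and at 24.7, 25.1 and 25.5 CPM in YT-AKO, about the same in each of the latter. It fell by 0.99 on the log2 scale (fold 0.503, SE 0.166, adjusted p = 0.0177), and the call was lost without WT 1 (adjusted p = 0.11) or WT 2 (0.111). *Tnfrsf13c*, encoding BAFF-R, stood at 55.1, 62.0 and 61.6 CPM and at 32.8, 41.8 and 26.8 CPM, again without overlap. It fell by 0.82 (fold 0.568, SE 0.191, adjusted p = 0.0279), and of the fits leaving out 1 library, the 1 without YT-AKO 2 called it (adjusted p = 0.00247), while the adjusted p was 0.0543 without YT-AKO 1, 0.059 without YT-AKO 3, 0.0743 without WT 3, 0.116 without WT 1 and 0.127 without WT 2.

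Of the 8 B cell markers, 5 were called lower and 3 did not pass the test. *Cd22* was at 195 to 248 CPM in WT and 84.1 to 100 CPM in YT-AKO, and *Ms4a1* at 158 to 202 and 74.9 to 85.1 CPM. The 3 that did not pass were *Cd79a* (193 to 212 and 155 to 240 CPM), *Cd79b* (182 to 194 and 122 to 284 CPM) and *Pax5*, with YT-AKO 2 highest of its group in each and above all WT libraries in *Cd79a* and *Cd79b*. The part of B cell number in the fall of the 2 receptors was not tested. *Tnfrsf17*, encoding the plasma cell receptor BCMA, had 7 to 23 counts per library and did not pass the test (log2 fold change 1.19, SE 0.545, adjusted p = 0.139). The BAFF gene *Tnfsf13b* was at 11.6, 13.5 and 8.07 CPM in WT and 11.3, 17.6 and 9.68 CPM in YT-AKO, with overlap (0.21, SE 0.297, adjusted p = 0.612, and -0.16 with library totals alone).

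*Cd40*, the receptor through which T cells help B cells and myeloid cells, was at 32.3, 26.3 and 20.7 CPM in WT and 23.6, 30.2 and 20.1 CPM in YT-AKO, so that unlike TACI and BAFF-R the groups overlapped (-0.10, SE 0.228, adjusted p = 0.753). Whether the change of *Cd40* differed from theirs was not tested.

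**Figure D4:**
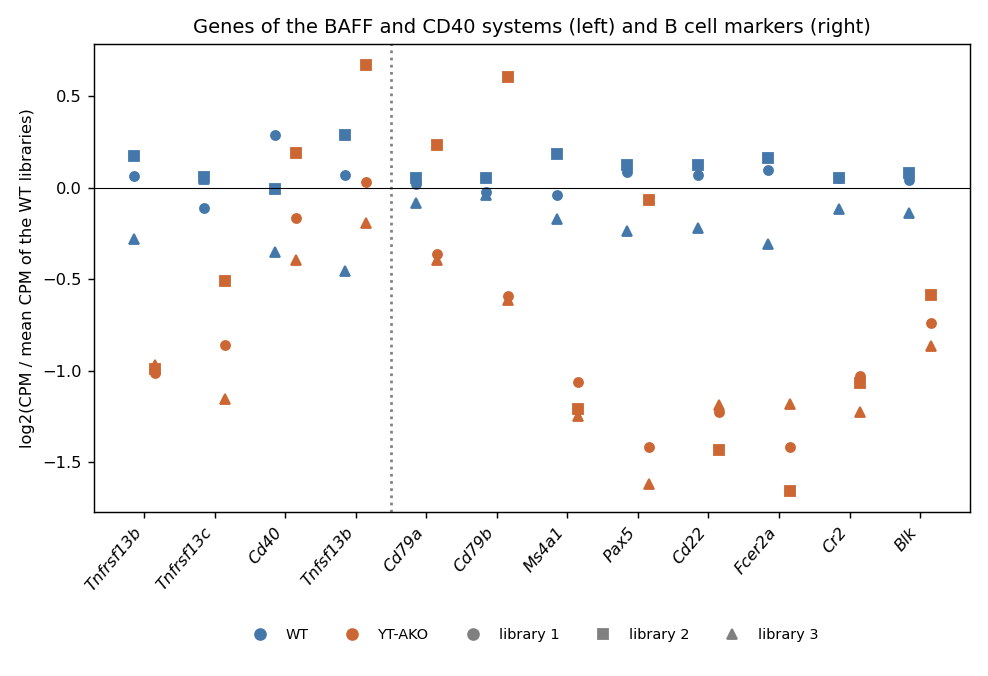
CPM of each library over the mean of the WT libraries, on the log2 scale (y axis), for *Tnfrsf13b*, *Tnfrsf13c*, *Cd40* and *Tnfsf13b* (left of the dotted line) and 8 B cell markers (right), with WT in blue and YT-AKO in orange. Both receptors lie below 0 in all 3 YT-AKO libraries, as do 5 called markers, while YT-AKO 2 lies above 0 for *Cd79a* and *Cd79b*.

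Of the 12 genes of lymphocyte costimulation, which hold the ligand and receptor pairs that sustain T cell responses, 10 were tested. Of these, 2 were called lower, beside 9.01% of all tested genes, both ligands of activated T cells. *Cd40lg*, the CD40 ligand of helper T cells, stood at 5.70, 4.04 and 3.44 CPM in WT (134, 92 and 67 counts) and at 2.44, 1.30 and 1.95 CPM in YT-AKO (42, 22 and 33 counts). It fell by 1.21 on the log2 scale (fold 0.431, SE 0.359, adjusted p = 0.048). *Tnfsf8*, encoding the CD30 ligand, stood at 12.5, 10.8 and 8.33 CPM and at 6.91, 4.18 and 4.07 CPM, and fell by 1.06 (fold 0.481, SE 0.292, adjusted p = 0.0404). In both the groups did not overlap, and in both the call was lost without WT 3 (adjusted p = 0.0776 for *Cd40lg* and 0.0648 for *Tnfsf8*), YT-AKO 3 (0.0883 and 0.0897), WT 1 (0.186 and 0.158) or WT 2 (0.146 and 0.144). Beside them, 8 T cell markers summed to 375 to 592 CPM in WT and 335 to 758 CPM in YT-AKO, with overlap, and 1 of the 8, *Cd4*, was called lower (60.4 to 93.9 CPM in WT and 38.3 to 45 CPM in YT-AKO, log2 fold change -0.89, adjusted p = 0.0253). The part of helper T cells in the fall of the ligands was not tested.

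The receptor *Tnfrsf25*, known as DR3 and found on T cells, was at 18.3, 14.8 and 19.3 CPM in WT and 30.9, 32.0 and 21.3 CPM in YT-AKO. It was higher without overlap but missed the threshold (0.68, SE 0.213, adjusted p = 0.0541), and passed it without YT-AKO 3 (0.86, adjusted p = 0.0407). Its ligand gene *Tnfsf15* had 4 to 31 counts per library and a log2 fold change of -1.08 (SE 0.559, adjusted p = 0.184). The other tested genes of this group, *Tnfrsf4* (OX40), *Tnfrsf18* (GITR), *Tnfrsf9* (4-1BB), its ligand gene *Tnfsf9*, and *Tnfrsf8* (CD30), had log2 fold changes from -0.67 to 0.47 with overlapping groups. For *Tnfrsf4* and *Tnfrsf18*, neighbours 9.55 kb apart on chromosome 4, YT-AKO 2 was the highest library (24.0 and 16.0 CPM), as it was for *Ltb*. With the length correction or library totals, *Tnfrsf18*, *Tnfrsf9* and *Tnfsf9* turned to negative values. *Tnfrsf18* shares 27.2% and *Tnfsf9* 14.9% of exon bases with other genes.

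Among the death receptors and their ligands, 1 of 5 was called lower, beside 9.01% of all tested genes. *Tnfsf10*, encoding TRAIL, the ligand of the apoptosis receptor TRAIL-R, stood at 48.7, 40.9 and 30.3 CPM in WT and 19.3, 10.5 and 20.5 CPM in YT-AKO. The groups did not overlap and YT-AKO 2 was lowest. It fell by 1.25 on the log2 scale (fold 0.42, SE 0.293, adjusted p = 0.028), and the call was lost without WT 3 (adjusted p = 0.0501), WT 1 (0.125) or WT 2 (0.122). Its receptor gene *Tnfrsf10b* stood at 14.4, 16.2 and 12.3 CPM and at 10.3, 6.07 and 8.56 CPM. It was lower without overlap but just missed the threshold (-0.78, SE 0.248, adjusted p = 0.0564), and passed it without YT-AKO 1 (adjusted p = 0.0438) or YT-AKO 2 (0.0461).

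*Fas*, the receptor that mediates killing by T cells, was at 25.7, 25.4 and 32.8 CPM in WT and 41.2, 59.7 and 31.2 CPM in YT-AKO. YT-AKO 3 overlapped the controls (0.66, SE 0.252, adjusted p = 0.0926), and without it the gene was called higher (0.86, adjusted p = 0.0498). *Fasl*, its ligand gene, had 9 to 25 counts per library (1.06, 0.965 and 1.08 CPM in WT, 0.987, 1.30 and 0.531 CPM in YT-AKO) and a log2 fold change of -0.14 (SE 0.457, adjusted p = 0.834). *Tnfrsf21*, a death domain receptor known as DR6, was at 24.3, 24.6 and 24.1 CPM in WT and at 22.3, 11.0 and 20.7 CPM in YT-AKO, lower without overlap (-0.44, SE 0.266, adjusted p = 0.25).

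Mice carry a cluster of receptors on chromosome 7 that includes decoy TRAIL receptors without a death domain, and none of its 3 genes passed the test. *Tnfrsf22* stood at 13.1, 10.1 and 10.7 CPM in WT and at 7.66, 4.24 and 6.90 CPM in YT-AKO (-0.85, SE 0.272, adjusted p = 0.0584, and 0.0442 without YT-AKO 2). Its neighbour *Tnfrsf26*, 6.08 kb away, was at 7.66, 11.2 and 6.63 CPM and at 5.98, 4.65 and 5.25 CPM (-0.68, SE 0.270, adjusted p = 0.0989). Both were lower without overlap, as was the active receptor *Tnfrsf10b*. *Tnfrsf23*, 16.1 kb further on, overlapped between the groups (-0.31, SE 0.310, adjusted p = 0.47).

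The RANK axis controls osteoclasts and lymph node formation, and none of its 3 genes passed the test. *Tnfrsf11a*, encoding RANK, was at 14.7, 12.5 and 9.87 CPM in WT and 9, 7.54 and 7.79 CPM in YT-AKO, lower without overlap (-0.61, SE 0.221, adjusted p = 0.0802). *Tnfsf11*, encoding its ligand RANKL, was at 6.04, 6.89 and 4.68 CPM and at 4.93, 2.30 and 3.66 CPM, with overlap (-0.69, SE 0.337, adjusted p = 0.16). *Tnfrsf11b*, encoding the decoy osteoprotegerin, was counted 17, 11 and 14 times in WT and 10, 0 and 3 times in YT-AKO. Although each YT-AKO count was below each WT count, the groups overlapped in CPM, and the gene was not called (adjusted p = 0.298).

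In the ectodysplasin branch, which shapes hair and glands, neither tested gene passed the test. *Eda* was at 3.49, 3.60 and 6.27 CPM in WT and at 3.77, 1.47 and 4.01 CPM in YT-AKO (-0.53, SE 0.441, adjusted p = 0.395). *Tnfrsf19*, known as TROY, had 14 to 39 counts per library (0.11, SE 0.522, adjusted p = 0.883). The receptor gene *Edar* had 8, 3 and 1 counts in WT and 1, 0 and 1 in YT-AKO, where a count of 0 in YT-AKO 2 allows up to 3 counts, 0.177 CPM on the TMM scale of the other values.

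Downstream of the receptors, a list of 47 genes was followed, made of adaptors, death regulators, kinases, NF-κB subunits, inhibitors, the linear ubiquitin complex, sheddases and kin of the family without its symbols. Of 46 tested, 2 were called higher and 7 lower, beside 12.6% and 9.01% of all tested genes. *Rel*, the NF-κB subunit c-Rel of lymphocytes, stood at 73.6, 74.5 and 54.9 CPM in WT and 31.3, 22.4 and 27.4 CPM in YT-AKO (-1.32, SE 0.196, adjusted p = 0.0171). *Traf3*, the adaptor that restrains the alternative NF-κB pathway below BAFF-R and the lymphotoxin β receptor, was at 70.5, 66.4 and 50.5 CPM and at 38.5, 28.0 and 32.6 CPM (-0.92, SE 0.194, adjusted p = 0.0234). In both, all YT-AKO libraries lay below all WT libraries.

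The other genes called lower were *Birc3*, an inhibitor of apoptosis bound to TRAFs (-0.82, SE 0.228, adjusted p = 0.0407), the deubiquitinase *Cyld* (-0.64, adjusted p = 0.0261), the kinase *Ikbkb* (-0.64, adjusted p = 0.0339), the sheddase *Adam10* (-0.61, adjusted p = 0.0261) and *Cflar*, which blocks caspase-8 (-0.53, adjusted p = 0.0422). Those called higher were *Rela*, the p65 subunit (92.8, 96.8 and 98.0 CPM against 120, 148 and 141 CPM, 0.51, SE 0.151, adjusted p = 0.0485), and *Nfkbib*, an inhibitor that shares 16.4% of its exon bases with other genes (0.71, SE 0.201, adjusted p = 0.0436). Members of the same step did not move together, since *Rela* rose and *Rel* fell while *Nfkb1*, *Nfkb2* and *Relb* had log2 fold changes of -0.34, -0.02 and 0.09 and were not called. Of the 7 genes listed as inhibitors, *Cyld* fell, *Nfkbib* rose and 5 were not called, among them *Nfkbia* at -0.17 (adjusted p = 0.656) and *Tnfaip3* at -0.69 (adjusted p = 0.0759).

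Several of these calls went with gene length. With the length correction, 0 of the 46 were higher and 2 lower, beside 10.1% and 4.54% of all tested genes. The 2 were *Rel* (-1.01, adjusted p = 0.0184) and *Traf3* (-0.61, adjusted p = 0.043). *Ikbkb*, whose exons sum to 19078 bp, went from -0.64 to 0.01, and *Cflar*, with 12669 bp, from -0.53 to -0.01. *Cyld* moved to -0.12 (adjusted p = 0.567), and *Rela* (0.41, adjusted p = 0.0884) and *Nfkbib* (0.41, adjusted p = 0.125) were no longer called. *Birc3* (-0.70, adjusted p = 0.0515) and *Adam10* (-0.48, adjusted p = 0.0505) just missed the threshold. Over the list, the median log2 fold change was -0.30 (median exon length 4961 bp) and -0.10 after the correction, beside -0.02 and 0.06 over all tested genes (median 3888 bp). The ligands and receptors are shorter (median 2472 bp), and their median went the other way, from -0.24 to -0.39. Without WT 1 or WT 2, none of the 46 genes was called.

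**Figure D5:**
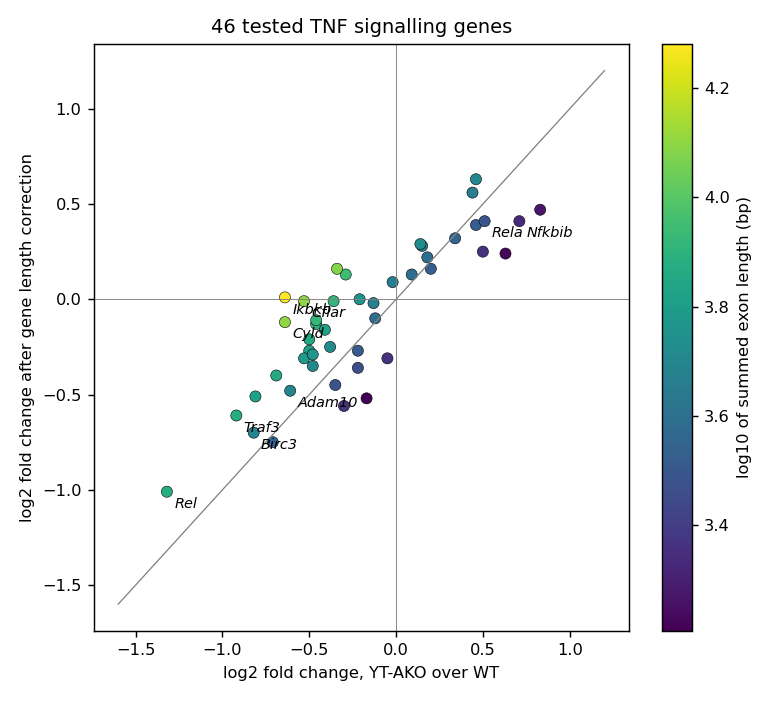
Log2 fold change of YT-AKO over WT for the 46 tested signalling genes before (x axis) and after (y axis) the correction for gene length, coloured by the log10 of summed exon length in bp, with the 9 called genes named and the line of equal values in grey. Long genes such as *Ikbkb* and *Cflar* lie above the line near 0, while *Rel* and *Traf3* stay below 0.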

How the data were processed

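RNA-seq counts of 6 scWAT libraries were used, grouped by the labelled genotype. The authors aligned paired-end reads with HISAT2 (mm10) and ran featureCounts 2.0.1 on GENCODE vM25 exons. The deposited files hold raw fragment counts for each gene, unstranded, and omit fragments with several alignments or on bases of more than 1 gene. Symbols were matched for 55141 of 55401 genes. Counts were tested in R 4.3.3 with edgeR 4.0.16 (TMM, filterByExpr with a minimum count of 10 and total of 15, quasi-likelihood test) and Benjamini-Hochberg adjusted p-values over 16807 genes, with calls at an adjusted p under 0.05. CPM values use the TMM factors (1.065 to 1.156 in WT and 0.7775 to 0.9553 in YT-AKO), and TPM uses summed exon lengths. The length correction fitted a spline (6 degrees of freedom) per library. The SE of a log2 fold change was derived from the edgeR test, as its absolute value over the square root of the F statistic. The biological coefficient of variation was 0.288. A count of 0 allows up to 3 counts, which covers counting error only.

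Values per library are given for called members, for those next by p up to 12 in all, and for the main ligands and receptors of each branch; genes outside this rule (*Tnfrsf14*, *Tnfrsf21*, *Tnfrsf26*, uncalled signalling genes, *Cflar* and markers) were chosen after their values were seen. One marker fixed in the lists is not reported here. The members and lists were chosen with earlier results of these data known. Alternatives were DESeq2 1.42.0, limma-voom 3.58.1, size factors, upper-quartile factors, library totals, other filters, robust estimation, a replicate block, the length correction, a stricter rule, and each library left out. The length correction without YT-AKO 2 was added after the data were seen.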

Additional observations from a re-analysis of the deposited data

How the results depend on the processing

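Each of the 8 calls rests on 22 or more counts in every library. Over 18 alternative fits, the 8 called genes kept their direction in all of 144 values, and the 38 tested genes in 644 of 679. For the called genes this was largely fixed by their selection, since their groups did not overlap. Members called higher (3) and lower (5) became 1 and 0 under the stricter rule. With library totals alone 8 were called lower, beside 2820 of all 16807 tested genes. That scaling shifted the median of all genes from -0.02 to -0.34. With each library left out in turn, members called numbered 0 to 4 and 0 to 7, beside 0 to 2925 and 0 to 2426 of all genes. For the signalling genes called higher (2), the number was 1 with DESeq2 size factors in edgeR and 1 with upper-quartile factors, and 0 with the length correction, with library totals and under the stricter rule. Of those called lower (7), the length correction left 2 and the stricter rule 0, while library totals gave 15, beside the 2820 of all genes. With each library left out, the numbers were 0 to 5 higher and 0 to 9 lower, beside 0 to 2925 and 0 to 2426 of all genes. The median log2 fold change of the family, -0.24, was -0.39 with the length correction, -0.41 with that correction without YT-AKO 2, and -0.58 with library totals. The causes of these changes were not tested.

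The labels do not say whether the replicate numbers pair the libraries. Deviations from the group means of same-numbered libraries correlated at 0.126, -0.118 and -0.0893, and those of differently numbered libraries at -0.14 to 0.16. With 3 libraries per group these values cannot decide whether the numbers mark pairs. With the number as a replicate block, 1 member (*Tnfrsf12a*, adjusted p = 0.0377 with edgeR) was higher and 0 lower, beside 24 and 9 of all 16807 tested genes. The block and the length correction together also gave 1 and 0, beside 59 and 22. In both fits 0 signalling genes were called in either direction. An unadjusted p under 0.05 was found for 13 and 12 members, beside 5806 and 5091 genes, and DESeq2 without the block called 11 members. The median was -0.42 with the block and the length correction.

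Signs turned in genes that were not called. *Tnfsf13b* was at -0.16 with library totals. *Tnfsf9* was at -0.15 with the length correction, -0.07 with library totals and -0.25 with the block and the length correction. *Tnfrsf18* took the values -0.38, -0.34 and -0.41 in these fits, -0.04 with limma-voom, -0.02 with the block, and -0.73 with the length correction without YT-AKO 2. *Tnfrsf9* was at -0.15, -0.35 and -0.21, at -0.06 with limma-voom, -0.04 with the block, -0.03 with upper-quartile factors, -0.01 with at least 10 counts in every library, and -0.47 with the length correction without YT-AKO 2. *Tnfrsf19* was at -0.27 with library totals. The length correction without YT-AKO 2 gave -0.30 for *Tnfrsf19*, -0.20 for *Tnfrsf4* and -0.07 for *Ltb*. With each library left out, the ranges that crossed 0 were -1.34 to 0.12 for *Tnfsf13*, -0.08 to 0.39 for *Tnfsf13b*, -0.22 to 0.47 for *Tnfsf9*, -0.28 to 0.06 for *Cd40*, -0.48 to 0.29 for *Tnfrsf18*, -0.32 to 0.30 for *Tnfrsf9*, -0.45 to 0.15 for *Fasl*, -0.37 to 0.39 for *Tnfrsf19* and -0.26 to 0.09 for *Tnf*.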
